A study of Mus musculus with 75 samples.

Results

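The genes described here are 44 genes of the cell division machinery, listed by name for their role, out of the 37310 gene identifiers that the count files of cortex and nuclei list. All 44, which were chosen with earlier results of these data known, were found in them by symbol. By role they comprise 6 genes of replication licensing, 4 of S-phase synthesis, 2 of G1/S control, 9 mitotic cyclins and kinases, 7 genes of the kinetochore and spindle checkpoint, 8 spindle motors and microtubule factors, 3 genes of chromosome structure, and 5 of mitotic exit and cytokinesis.

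The series holds 75 samples on the DNA methyltransferase DNMT3A in the mouse brain and in embryonic stem cells, and 26 of them are the RNA libraries used here. All 26 came from C57BL/6 mice at postnatal day 21, in 10 groups. Cerebral cortex of Dnmt3a1-/- mice, which lack the long isoform of DNMT3A, was compared with a wild type series without a letter, called plain here (3 against 3 libraries). Cortex of Dnmt3a2-/- mice, which lack the short isoform, was compared with the wild type series lettered r (2 against 2), and cortex of Dnmt3a1_delta_N mice, whose long isoform lacks its N-terminal part, with the series lettered n (3 against 3). Dnmt3a1-/- hippocampus had its own wild type libraries (3 against 3), as did neuronal nuclei of the cortex sorted with an antibody to NeuN and labelled Dnmt3a1-/- (2 against 2). Nothing in the labels ties a library to an animal, within a group or between cortex and hippocampus, so a p-value here speaks of library-to-library spread, part of which may be technical. The alleles are named in the labels without the exon removed, and no Cre driver is given.

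Dividing cells license their replication origins with the MCM2-7 helicase, copy DNA in S phase, and then condense, align and separate their chromosomes under cyclin-dependent kinase 1, the Aurora and Polo kinases and the spindle checkpoint. Most of these genes are switched on only in cycling cells, through E2F sites in the promoters of S-phase genes and through the cell cycle genes homology region (CHR), often beside CCAAT boxes bound by NF-Y, in those of mitotic genes. In the cortex at weaning age neurons no longer divide, and the cells that still do are mainly oligodendrocyte precursors, with some glia and vessel cells, while the dentate gyrus of the hippocampus and the zone lining the lateral ventricle keep dividing progenitors.

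The promoters are shown first because the roles differ in the regulatory letters they carry. RefSeq promoters of GRCm38.p6, reaching 250 bases before to 50 bases after the start, were matched by symbol for 37 of the 44 genes. For each role with a matched gene that fell in Dnmt3a1-/- cortex (below), the one with the smallest p-value is given, as the 180 bases that end just before the transcription start, 5′ to 3′. Capitals mark the CHR (TTTGAA, on the other strand TTCAAA), the CCAAT box (CCAAT, on the other strand ATTGG) and the E2F site (here TTGGCGC).
Mcm2: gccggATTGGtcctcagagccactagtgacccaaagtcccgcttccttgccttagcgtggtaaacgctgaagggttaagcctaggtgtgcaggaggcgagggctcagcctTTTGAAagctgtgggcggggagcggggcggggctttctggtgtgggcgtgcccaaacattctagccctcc
Cenpf: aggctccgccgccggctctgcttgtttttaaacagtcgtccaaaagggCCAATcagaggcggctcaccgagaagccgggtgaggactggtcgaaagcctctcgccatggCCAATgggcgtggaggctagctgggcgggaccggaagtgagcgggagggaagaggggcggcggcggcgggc
Hmmr: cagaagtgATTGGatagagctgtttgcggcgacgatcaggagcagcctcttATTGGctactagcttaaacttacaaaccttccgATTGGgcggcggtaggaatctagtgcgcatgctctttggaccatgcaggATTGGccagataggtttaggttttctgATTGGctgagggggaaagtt
Mki67: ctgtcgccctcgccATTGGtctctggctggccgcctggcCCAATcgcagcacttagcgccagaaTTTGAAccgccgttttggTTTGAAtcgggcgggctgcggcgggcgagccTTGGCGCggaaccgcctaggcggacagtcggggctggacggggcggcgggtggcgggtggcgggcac
Ube2c: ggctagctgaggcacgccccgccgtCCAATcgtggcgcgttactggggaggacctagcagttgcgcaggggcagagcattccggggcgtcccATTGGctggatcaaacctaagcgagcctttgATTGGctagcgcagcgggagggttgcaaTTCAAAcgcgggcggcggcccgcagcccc
The Mcm2 stretch is chr6:88898781-88898960 on the minus strand. The Cenpf stretch is chr1:189688087-189688266 on the minus strand. The Hmmr stretch is chr11:40733438-40733617 on the minus strand. The Mki67 stretch is chr7:135716380-135716559 on the minus strand. The Ube2c stretch is chr2:164769749-164769928 on the plus strand. Mki67 carried 2 CHR matches, 2 CCAAT boxes and 1 E2F site in this stretch. Ube2c carried 1 CHR match and 3 CCAAT boxes, Mcm2 carried 1 CHR match and 1 CCAAT box, and Hmmr held 5 CCAAT boxes. Cenpf held 2 CCAAT boxes in the stretch, and the CHR matches of Cenpf and Hmmr lay just after the start, outside the letters shown.

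Over the whole 300 bases and on both strands, the CHR (TTTGAA) was present in 22 of the 37 promoters (59.5%), against 18.1% of 27025 mouse promoters of the same length. The CCAAT box was present in 29 of 37 (78.4%), against 37.9%, and an E2F site in 11 of 37 (29.7%), against 9.69%. The E2F letters searched were TTCCCGC, besides it TTCGCGC, then also TTGCCGC and lastly the form TTGGCGC. The CCAAT box read on the other strand (ATTGG) can share letters with TTGGCGC. The CHR was found in 21 of 27 genes of the 5 mitotic roles and in 1 of 10 genes of the other 3 roles, that 1 being Mcm2. E2F sites were found in 4 of the 5 replication licensing genes matched (Mcm3, Mcm5, Mcm6 and Mcm7), and Mcm2 had none in this window. Among genes that fell in Dnmt3a1-/- cortex, 7 of 8 matched promoters held a CHR, and among the other genes 15 of 29 did. The genes that fell and the others differ in their mix of roles, and this comparison was not made within roles. These matches are descriptions of letters, and binding was not measured for them here.

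**Figure D1:**
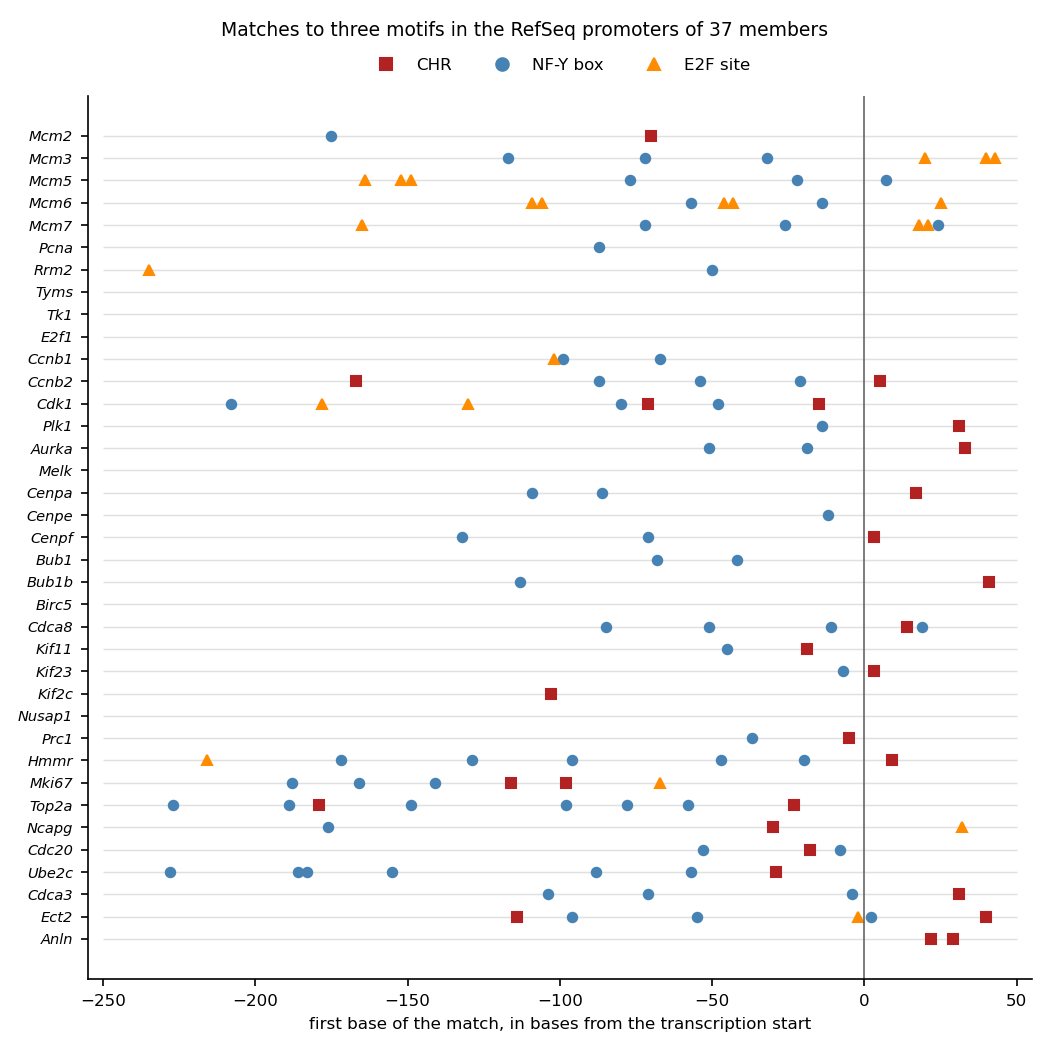
Positions of motif matches in the promoters of the 37 genes found in RefSeq, ordered by role from replication licensing at the top to cytokinesis at the bottom; the horizontal axis gives the distance of a match's first base from the transcription start, in bases, and each symbol is 1 match. CHR squares (22 of 37 promoters) are nearly all in the lower, mitotic part and cluster near the start, while E2F triangles (11 of 37) are densest in the licensing genes.

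The libraries held 8677149 to 39049155 counts in genes, and the hippocampus libraries, at 8677149 to 23237957, included the shallowest. Levels below are counts-per-million (CPM) of a library's gene total, so a gene at 1 CPM rests on 9 to 39 reads. Because transcript lengths were not used, levels are compared between libraries and never between genes. Dnmt3a itself lay between 145.5 and 165.4 CPM in the plain wild type cortex and between 73.2 and 80.8 in Dnmt3a1-/- cortex. Hippocampus showed a similar gap, from 134.2 to 162.5 CPM in wild type to between 71.5 and 76.1 in the mutant. In the nuclei labelled Dnmt3a1-/- it was 381.5 and 369.3 CPM against 405.2 and 398.5, which did not pass the test, so these are called the nuclei labelled Dnmt3a1-/- throughout. Dnmt3a2-/- cortex had 131.9 and 144.0 CPM against 153.1 and 145.4, and Dnmt3a1_delta_N cortex 134.8 to 139.1 CPM against 146.6 to 162.9. In whole tissue, fewer dividing cells and less RNA per dividing cell cannot be told apart.

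A minority of the cell division genes, led by Mki67 and Top2a, fell in Dnmt3a1-/- cortex. Of the 44 genes, all of which were deep enough to test, 11 were lower at an adjusted p under 0.05 (edgeR quasi-likelihood test, Benjamini-Hochberg over 15933 genes), which is 25.0% of them, and 1 was higher; among all genes tested 8.91% were lower and 8.95% were higher. The median log2 fold change of the 44 was -0.35, against 0.01 over all genes tested, and 35 of the 44 were below 0. All 3 mutant libraries lay below all 3 wild type libraries for 19 of the 44 (17.7% of all genes did so). The genes that fell were Mki67, Top2a, Mcm2, Cenpf, Hmmr, Pbk, Mcm5, Kif20a, Prc1, Ube2c and Tpx2, and the gene that rose was Mcm7. Because the 44 were chosen with earlier results of these data known, their shares describe the list and are not an independent test. Of 115 further cell cycle genes tested (below), 5.22% were lower, and their median was 0.005.

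Chromosome structure held the clearest change, with 2 of its 3 genes lower. Mki67 encodes Ki-67, which coats mitotic chromosomes and is the standard label of cycling cells. Its level was 5.44, 5.11 and 5.29 CPM in the wild type libraries and 2.13, 2.36 and 2.81 CPM in the mutant ones. No mutant library came near the wild type range, and the fitted level was 47.0% of wild type (log2 fold change -1.09 ± 0.16 SE, n = 3 against 3, edgeR adjusted p = 0.000677). Top2a, the topoisomerase that untangles sister chromatids, was at 6.42, 6.93 and 6.13 CPM in wild type and at 2.21, 3.39 and 3.49 CPM in the mutant. The groups were again well apart, with mutant libraries at 48.4% of wild type (-1.05 ± 0.16, edgeR adjusted p = 0.00107). Ncapg, a condensin I subunit, was at 0.777, 0.969 and 0.844 CPM against 0.511, 0.533 and 0.493 CPM, with no overlap, but missed the threshold (-0.75 ± 0.29, edgeR adjusted p = 0.0865). Mki67 and Top2a were the only genes of the 44 that were called in every fit that left out 1 of the 6 libraries; the other 10 calls were each lost in at least 1 such fit. The number called was 5, 7 and 6 without wild type library 1, 2 or 3, and 5, 3 and 9 without mutant library 1, 2 or 3. Of these, 5, 6 and 6, and 4, 3 and 9, were lower. Over all genes the shares called in these fits in either direction were 16.8, 12.4 and 9.86%, and 12.2, 11.4 and 16.2%. Without wild type library 1 or mutant library 1 or 2 the members' share in either direction was thus below that of all genes. Shares of all genes by direction were not counted for these fits. DESeq2 called 4 of the 44 (Mki67, Top2a, Mcm2 and Cenpf), all lower, and 15.8% of all genes in either direction. The members' share was the smaller one, but shares of all genes by direction were not counted here either. Tk1, Bub1 and Kif2c were given no adjusted p by DESeq2.

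Among the spindle motors and microtubule factors, 4 of 8 fell and none rose. Hmmr, a spindle protein that helps TPX2 and Aurora A build the poles, was at 1.31, 1.34 and 0.844 CPM in wild type and 0.341, 0.457 and 0.759 CPM in the mutant (-1.09 ± 0.32, edgeR adjusted p = 0.0302). Kif20a, a kinesin of the central spindle, was at 1.51, 1.34 and 1.07 CPM against 0.0851, 0.876 and 0.531 CPM (-1.19 ± 0.38, edgeR adjusted p = 0.0451). The lowest of these is a single read, in the shallowest cortex library, and without that library the difference was -0.91 (edgeR adjusted p = 0.071). Prc1, which bundles the microtubules of the central spindle, was at 2.62, 2.27 and 3.32 CPM against 1.96, 1.64 and 1.71 CPM (-0.64 ± 0.21, edgeR adjusted p = 0.0465). Tpx2, the activator of Aurora A on the spindle, was at 3.03, 2.98 and 3.49 CPM against 1.70, 2.17 and 2.35 CPM (-0.56 ± 0.18, edgeR adjusted p = 0.049). In each of these 4 genes every mutant library was below every wild type library. Kif11, the kinesin that pushes spindle poles apart, and Nusap1, a spindle-stabilizing protein, were below wild type in every mutant library too but missed the threshold (-0.48 ± 0.18 and -0.54 ± 0.24). Kif11 passed in the fit blocked on replicate (edgeR adjusted p = 0.0396), which called 31% of all genes. Kif23 (0.10 ± 0.22), a motor of the cleavage furrow, and Kif2c (-0.03 ± 0.32), a microtubule depolymerase, overlapped between groups.

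Replication licensing was divided. All 6 genes encode subunits of the same MCM helicase, and 2 fell, 1 rose and 3 did not pass. Mcm2 was at 5.73, 4.47 and 4.33 CPM in wild type and 3.41, 2.63 and 3.11 CPM in the mutant (-0.70 ± 0.17, edgeR adjusted p = 0.0119). Mcm5 was at 5.97, 4.03 and 4.33 CPM against 3.15, 3.28 and 3.41 CPM (-0.54 ± 0.17, edgeR adjusted p = 0.0451). Mcm7 went the other way, from 10.96, 12.4 and 9.79 CPM to 12.8, 16.1 and 13.8 CPM (0.37 ± 0.12, edgeR adjusted p = 0.0461). Mcm3 overlapped between the groups (-0.35 ± 0.18), as did Mcm4 (0.08 ± 0.12) and Mcm6 (0.07 ± 0.14). The Mcm7 locus overlaps Ap4m1 and the microRNA genes Mir106b, Mir25 and Mir93 in RefSeq, so reads may be shared, since the strand setting of the counting is not given in the sources used here.

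S-phase synthesis and G1/S control showed no called gene: 0 of 4 and 0 of 2 passed in edgeR, 1 of these 6 (Tyms) had an unadjusted p under 0.05, and DESeq2 called none of them, giving Tk1 no adjusted p. Over all genes, 5162 of 15933 tested in edgeR had an unadjusted p under 0.05. Tyms, which makes thymidylate, had every mutant library below wild type (2.62, 2.38 and 1.86 against 1.62, 1.79 and 1.71 CPM; -0.43 ± 0.20, edgeR adjusted p = 0.15). Pcna, the sliding clamp of DNA polymerase, differed little (-0.13 ± 0.09), and Rrm2, the small subunit of ribonucleotide reductase, had every mutant library above wild type without passing (0.23 ± 0.14). The thymidine kinase gene Tk1 (-0.52 ± 0.39), the cyclin E gene Ccne2 (-0.14 ± 0.18) and the transcription factor gene E2f1 (-0.09 ± 0.14) overlapped between groups. Pcna has pseudogenes in the same files (Pcna-ps1 and Pcna-ps2), as do Ccnb1 and Ccnb2, and their counts may be split with these.

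Of the 9 mitotic cyclins and kinases, 1 fell. Pbk, a mitotic kinase also called TOPK, was at 1.68, 1.90 and 1.74 CPM in wild type and 0.511, 0.914 and 1.25 CPM in the mutant (-0.88 ± 0.27, edgeR adjusted p = 0.0345). Cdk1, the kinase that drives entry into mitosis, was at 1.84, 2.199 and 1.57 CPM against 1.45, 1.26 and 1.14 CPM and missed the threshold (-0.60 ± 0.22, edgeR adjusted p = 0.0761). Its partner cyclin gene Ccnb1 (-0.68 ± 0.27, edgeR adjusted p = 0.0925) and the kinase gene Melk (-0.85 ± 0.29, edgeR adjusted p = 0.0604) likewise had no overlap and did not pass. With the replicate number as a block both passed (edgeR adjusted p = 0.0479 and 0.0353). That fit called 31% of all genes, against 17.9% without the block. Ccna2 (0.29 ± 0.16), Ccnb2 (0.09 ± 0.22) and Plk1 (-0.02 ± 0.23), encoding cyclin A2, cyclin B2 and Polo-like kinase 1, overlapped between groups with values near or above 0. Aurka (-0.10 ± 0.26) and Aurkb (-0.41 ± 0.33), the Aurora kinase genes, overlapped as well.

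Of the 7 kinetochore and spindle checkpoint genes, 1 fell. Cenpf, a large protein of the outer kinetochore, was at 2.74, 2.87 and 2.02 CPM in wild type and 1.62, 1.03 and 1.71 CPM in the mutant (-0.85 ± 0.23, edgeR adjusted p = 0.022). Bub1, a checkpoint kinase, was lower in every mutant library at under 1 CPM (-0.86 ± 0.33, edgeR adjusted p = 0.0818). Cenpa, the histone H3 variant of centromeres, was above wild type in every mutant library without passing (2.41, 2.61 and 2.98 against 3.83, 3.70 and 3.15 CPM; 0.41 ± 0.17, edgeR adjusted p = 0.113). The checkpoint gene Bub1b (0.46 ± 0.31), the chromosomal passenger genes Birc5 (-0.07 ± 0.29) and Cdca8 (-0.30 ± 0.26), and the kinetochore motor gene Cenpe (-0.07 ± 0.23) overlapped.

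Of the 5 genes of mitotic exit and cytokinesis, 1 fell. Ube2c, the ubiquitin-conjugating enzyme of the anaphase-promoting complex, was at 1.51, 0.671 and 0.619 CPM in wild type and 0.341, 0.495 and 0.303 CPM in the mutant (-1.28 ± 0.41, edgeR adjusted p = 0.0461). One wild type library was far above the other two. The remaining genes of this role were below 0 without passing: Cdc20, the co-activator of that complex (-0.24 ± 0.27), Cdca3, a mitotic entry factor (-0.35 ± 0.24), Ect2, the activator of RhoA at the furrow (-0.22 ± 0.24), and Anln, encoding the scaffold anillin (-0.17 ± 0.30). Anln is also made by myelinating oligodendrocytes, and its wild type libraries ranged from 19.8 to 36.5 CPM.

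**Figure D2:**
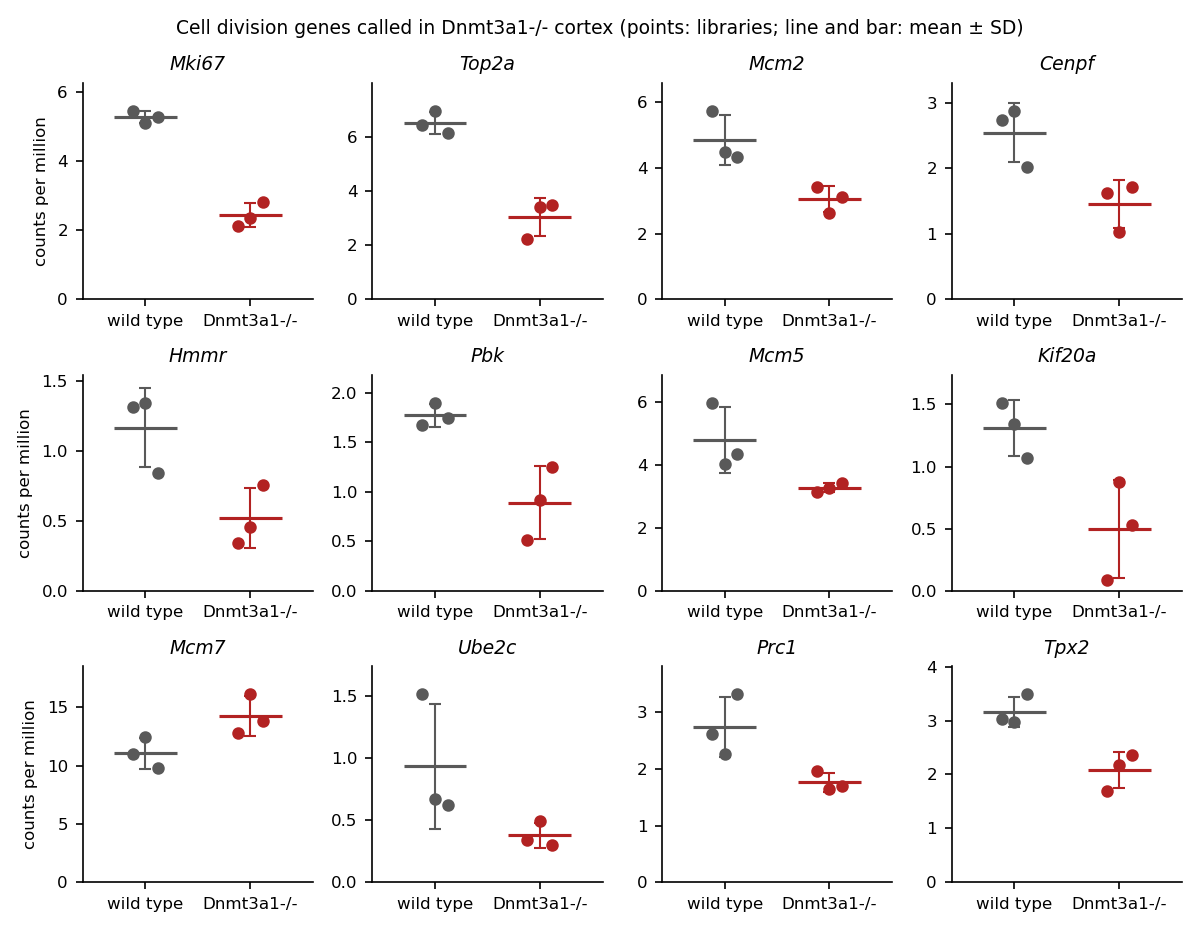
Levels of the 12 cell division genes called in Dnmt3a1-/- cortex, in counts-per-million on the vertical axis (each panel starts at 0); points are libraries (3 wild type in grey, 3 Dnmt3a1-/- in red), and lines and bars are mean ± SD. In all 12 panels the groups do not overlap; 11 genes are lower in the mutant and Mcm7 is higher.

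The plain wild type series lay high for several of these genes. The wild type cortex libraries lettered r had Mki67 at 3.33 and 3.16 CPM, and those lettered n had 4.29, 5.44 and 2.85 CPM. Between the r series and the plain series 7 of the 44 genes were called, 4 lower and 3 higher (33.3% of all genes called), with Mki67 at -0.72, Mcm2 at -0.64 and Cenpf at -0.59 among the lower ones. Between the n and the plain series 1 was called (Pcna; 20.1% of all genes), and between n and r 5 were (27.3%). These series are wild type mice of the same age, strain and tissue. Set against all 8 wild type cortex libraries, 10 of the 44 genes had every Dnmt3a1-/- library below every wild type library (10.9% of all genes did): Mcm5, Ccnb1, Melk, Pbk, Tpx2, Prc1, Hmmr, Mki67, Top2a and Ube2c. Top2a kept the widest gap, with the highest mutant library at 3.49 CPM and the lowest of the 8 wild type libraries at 5.11 CPM. For Mki67 the gap was narrow, from 2.81 to 2.85 CPM. Mcm2, Cenpf and Kif20a overlapped with these libraries. A fit with all 8 as controls called 11 genes, among them 8 of the 12 (18.9% of all genes were called); it gave Top2a -0.91 (edgeR adjusted p = 0.0026), Mki67 -0.80 (0.0316) and Mcm2 -0.47 (0.086).

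In Dnmt3a1-/- hippocampus the same 2 chromosome genes lay lower but did not pass. Of the 44 genes 39 had enough counts to test (Tk1, Ccnb1, Melk, Bub1 and Hmmr did not), and edgeR called 0 of them (0.827% of all genes were called lower). DESeq2 called 1, Mki67 (adjusted p = 0.0261), and without the filter on low counts edgeR called Mki67, Top2a and Anln (adjusted p = 0.00254, 0.0245 and 0.00172). In either direction, DESeq2 called 3.84% of all genes and the fit without the filter 3.33%. Without wild type library 1 Anln was called, and without wild type library 3 Mki67 was (edgeR adjusted p = 0.0083 and 0.0272). Those fits called 4.89% and 1.07% of all genes. At an unadjusted p under 0.05, 8 of the 39 were lower (8.12% of all genes) and none was higher, and 6 of the 39 had every mutant library below every wild type library (8.34% of all genes). The median log2 fold change was -0.21, against 0.01 over all genes, and 30 of the 39 were below 0. It was -0.09 without wild type library 1, -0.39 without wild type library 3 and -0.14 without mutant library 3. The hippocampus files list 55487 gene identifiers, more than the cortex files, so the annotations differed.

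Mki67 in hippocampus was at 7.72, 7.23 and 4.504 CPM in wild type and at 4.05, 3.28 and 3.57 CPM in the mutant. Every mutant library was below every wild type library, and the test fell just short (-0.84 ± 0.22, n = 3 against 3, edgeR adjusted p = 0.0576). Top2a was at 8.99, 6.05 and 5.60 CPM against 5.10, 3.69 and 4.17 CPM, also with no overlap (-0.67 ± 0.21, edgeR adjusted p = 0.108). Prc1 was at 3.69, 2.58 and 2.80 CPM against 1.94, 1.57 and 1.89 CPM (-0.72 ± 0.24, edgeR adjusted p = 0.125). Ube2c was at 0.692, 0.897 and 1.02 CPM against 0.440, 0.615 and 0.258 CPM (-1.11 ± 0.40, edgeR adjusted p = 0.162). Mcm6 (-0.35 ± 0.11) and Ect2 (-0.79 ± 0.30) also had no overlap, while Anln (-0.51 ± 0.15) did overlap and Mcm3 did too (-0.41 ± 0.18). The first wild type library of hippocampus was the highest for Mki67 and Top2a and also the shallowest.

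Of the 11 genes that fell in Dnmt3a1-/- cortex, 10 could be tested in hippocampus and all 10 were below 0, with a median of -0.41. The other 29 genes tested there had a median of -0.15, and 20 of them were below 0. The 2 comparisons share no library. The test of the difference between the tissues called 0 of 44 genes in edgeR (0.0% of all genes), and DESeq2 called 0. At an unadjusted p under 0.05 it marked 2, Pcna and Mcm6 (5.03% of all genes). For Mki67 and Top2a no difference between the tissues was thus called, which does not show that the effects were equal.

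**Figure D3:**
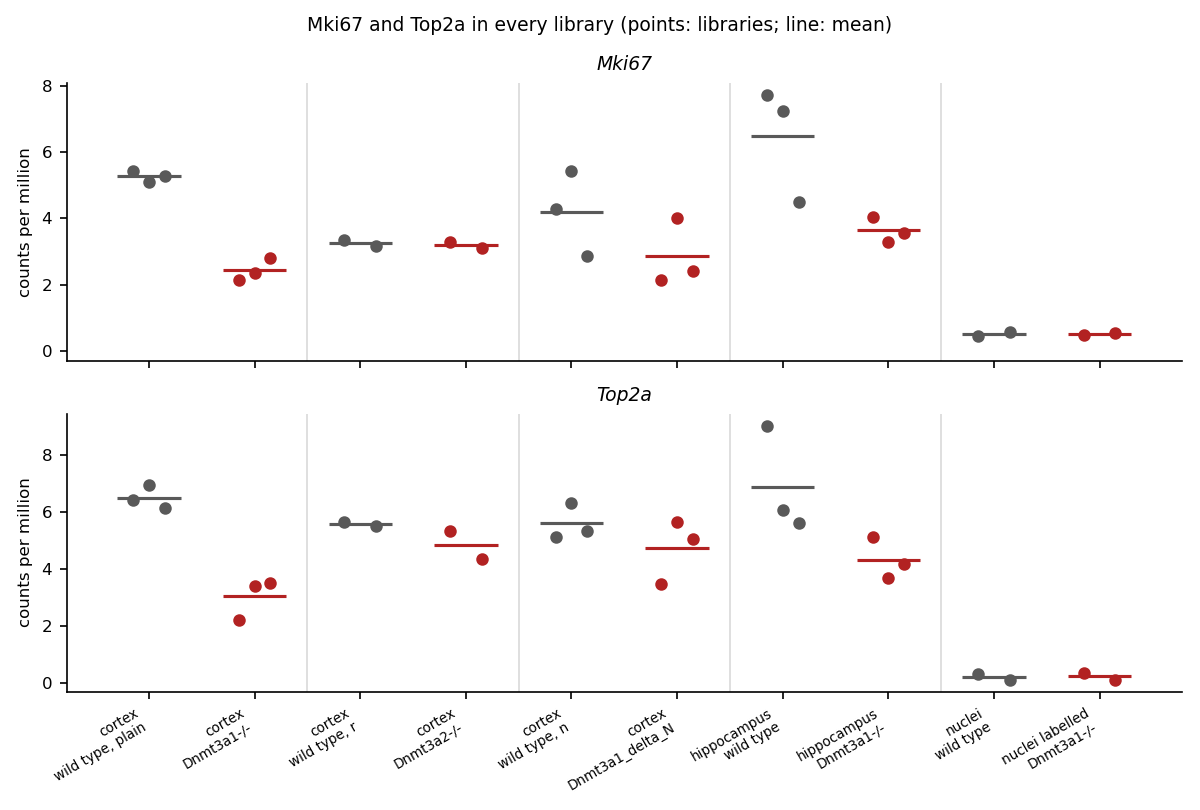
Mki67 (top) and Top2a (bottom) in counts-per-million in every library, by group; points are libraries, lines are means, grey is wild type and red is mutant, and vertical rules separate each mutant with its own wild type libraries. In cortex and hippocampus every Dnmt3a1-/- library lies below its wild type libraries; Dnmt3a2-/- and Dnmt3a1_delta_N cortex show no such gap for Mki67. For Top2a both Dnmt3a2-/- libraries lie below their wild type libraries, and both genes are near 0 in nuclei.

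Cortex of the other mutants showed no called gene. In Dnmt3a1_delta_N cortex edgeR called 0 of 44 (0.0% of all genes) and DESeq2 0; 2 had an unadjusted p under 0.05, Kif11 and Nusap1, both lower (7.98% of all genes passed that mark in either direction). The median log2 fold change was -0.07. Mki67 was at 2.14, 4.01 and 2.41 CPM against 4.29, 5.44 and 2.85 CPM, and Top2a at 3.46, 5.65 and 5.04 CPM against 5.11, 6.31 and 5.34 CPM. The groups overlapped for both (-0.53 ± 0.28 and -0.22 ± 0.18), while within each of the 3 numbered pairs the mutant library was the lower one for both genes; neither passed with the replicate number as a block. The 11 genes that fell in Dnmt3a1-/- cortex had a median of -0.22 here, and 9 of them were below 0, while in Dnmt3a2-/- cortex their median was -0.08 and 8 were below 0.

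The direct test of the Dnmt3a1_delta_N effect against the Dnmt3a1-/- effect in cortex called 0 of 44 genes in edgeR (0.103% of all genes) and 0 in DESeq2. At an unadjusted p under 0.05 it marked 8 (11.4% of all genes), and 34 of the 44 differences were above 0, with a median of 0.32. Top2a differed by 0.83 ± 0.26 (edgeR adjusted p = 0.247). With the replicate number as a block, Top2a (0.83, edgeR adjusted p = 0.043) and Anln (0.41, 0.0325) were called, and without the first Dnmt3a1_delta_N library Top2a and Mcm2 were (1.01 and 0.93, edgeR adjusted p = 0.0348 and 0.0456). Over all genes these fits called 2.91% and 1.1%.

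In Dnmt3a2-/- cortex edgeR called 0 of 44 genes (0.00628% of all genes) and DESeq2 0, and none had an unadjusted p under 0.05 (2.87% of all genes). Mki67 was at 3.30 and 3.11 CPM against 3.33 and 3.16 CPM (-0.02 ± 0.19), and Top2a at 5.32 and 4.33 CPM against 5.65 and 5.49 CPM (-0.21 ± 0.18), both mutant libraries being below both wild type ones for Top2a. The median of the 44 was -0.02. With 2 libraries a group, this comparison has less precision than those of 3.

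**Figure D4:**
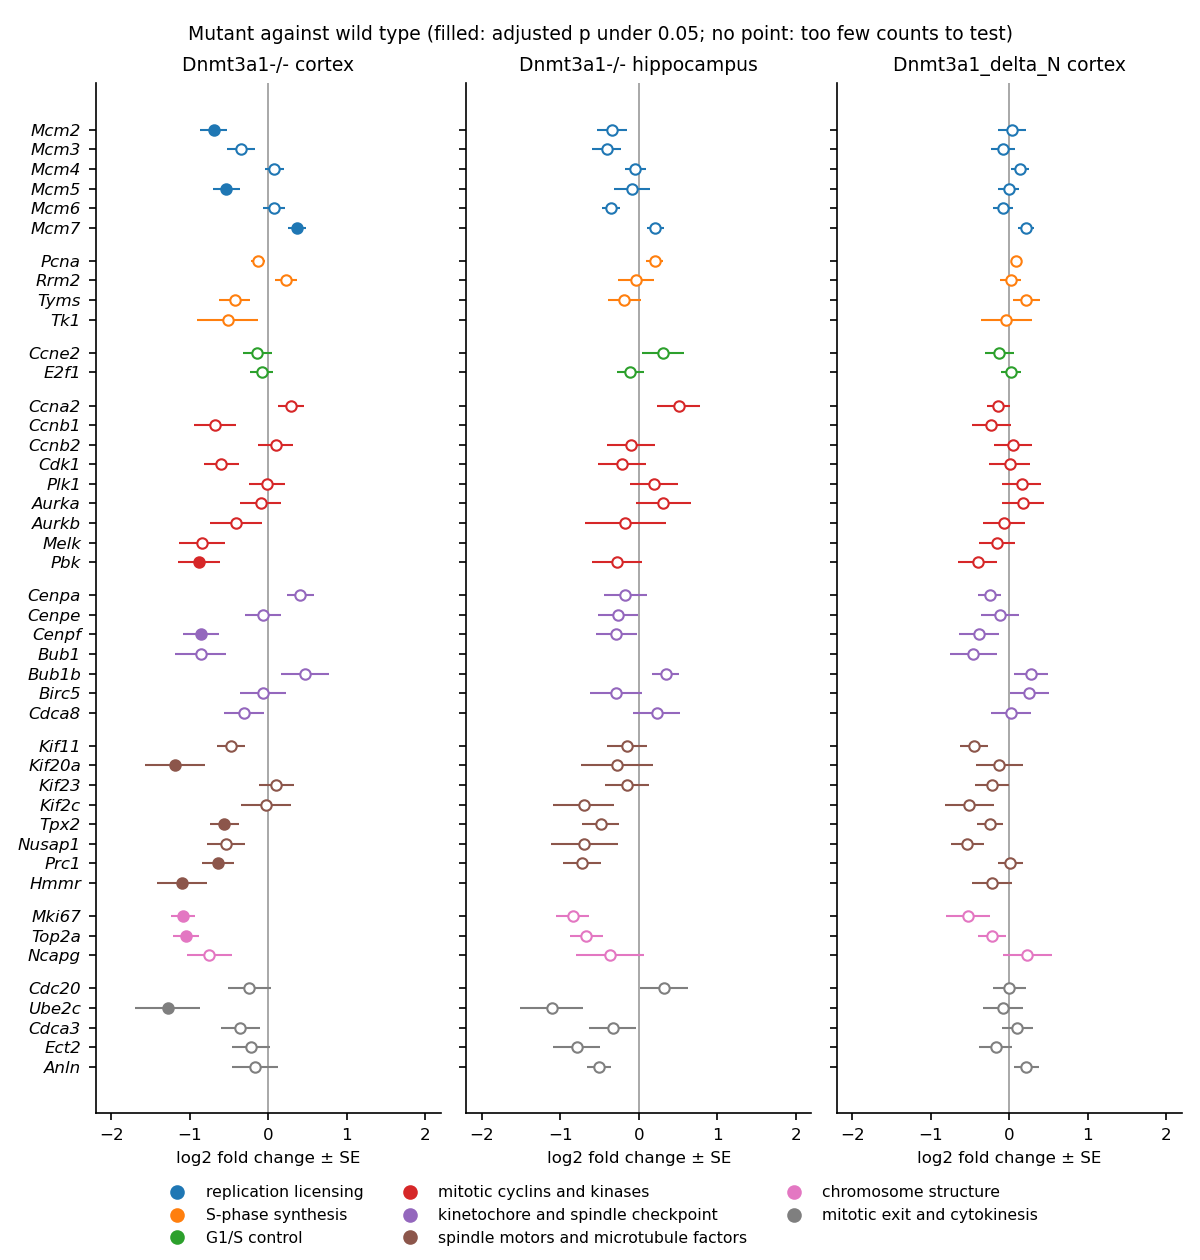
Log2 fold change ± SE of each cell division gene in Dnmt3a1-/- cortex, Dnmt3a1-/- hippocampus and Dnmt3a1_delta_N cortex, each against its own wild type libraries; genes are grouped and coloured by role, filled points have an adjusted p under 0.05, and a missing point marks a gene with too few counts to test. In Dnmt3a1-/- cortex 12 points are filled and in the other panels none is.

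Sorted neuronal nuclei separated the 44 genes into groups. In wild type nuclei against the plain wild type cortex, 26 were lower and 11 higher (41.8% and 42.1% of all genes). This comparison differs in cell type, in nuclear against whole-cell RNA and in library series at once, which cannot be told apart. Markers of non-neuronal cells were nearly gone from the nuclei: all 10 microglial, all 12 endothelial, all 8 astrocyte and all 11 tested oligodendrocyte precursor markers were lower, with median log2 fold changes of -6.94, -6.84, -5.90 and -4.72. The 9 neuronal markers had a median of -0.48. Reads outside genes were 27.99 and 29.08% in the wild type nuclei and 9.38 to 10.16% in the plain cortex series, and the part of this in the differences was not tested. The 44 cell division genes had a median of -0.98 and ran from near absence to several-fold excess.

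The genes nearly absent from nuclei included the standard markers of division. Cdk1 had 0 counts in both wild type nuclei libraries, against 1.84, 2.199 and 1.57 CPM in cortex, which makes it at least 44-fold lower, taking a limit of 3 counts over the group. Mki67 was at 0.455 and 0.565 CPM in nuclei (-3.66 ± 0.23, edgeR adjusted p = 2.63e-09) and Top2a at 0.313 and 0.113 CPM (-5.20 ± 0.30, edgeR adjusted p = 1.03e-09). Pbk (0.171 and 0 CPM), Aurkb (0.0284 and 0.113 CPM) and Kif2c (0.0284 and 0.0283 CPM) rested on 0 to 6 reads a library. Mcm3, at 0.455 and 0.170 CPM, was 20.2-fold lower, while the other licensing genes were less reduced (Mcm2 -1.28, Mcm5 -1.07, Mcm6 -1.34) or not (Mcm4 -0.20, not called). Anln differed by -3.90.

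Several mitotic genes were higher in nuclei than in cortex. Plk1 was at 12.5 and 10.1 CPM in nuclei, against 1.35, 1.45 and 1.29 CPM in cortex (2.74 ± 0.19, edgeR adjusted p = 5.3e-09). Ccna2 was at 24.3 and 21.6 CPM, against 3.56, 2.83 and 3.94 CPM (2.45 ± 0.15, edgeR adjusted p = 2.2e-09). Ccnb2 was at 8.41 and 6.64 CPM, against 1.27, 1.49 and 1.63 CPM (2.07 ± 0.20, edgeR adjusted p = 3e-07). No nuclei library of these genes came near the cortex range. Ccne2 (2.00), Cenpa (1.42), Kif23 (1.35), Birc5 (1.33), Bub1b (1.147), Ccnb1 (0.80), Mcm7 (0.73) and Tyms (0.50) were also higher. The Ccnb1 call was lost with the n series as the cortex control (0.22, edgeR adjusted p = 0.365) and with the r series (-0.11, 0.623). The Ccna2 locus overlaps Exosc9 and the Ccne2 locus overlaps Ints8 in RefSeq, so part of their reads may belong to those genes; Plk1, Ccnb2, Cenpa, Kif23, Birc5 and Bub1b have no overlapping gene listed there.

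The level in nuclei and the change in Dnmt3a1-/- cortex were then set side by side with the n series as the cortex control for nuclei, so that the 2 comparisons share no library. With it 26 genes were lower in nuclei and 11 higher (41.7% and 40.7% of all genes); Melk was called higher (0.67, edgeR adjusted p = 0.0227) and Ccnb1 was not called. Melk was not called with the plain series (0.37) or the r series (-0.08, edgeR adjusted p = 0.769). All 11 genes that fell in Dnmt3a1-/- cortex were among the 26 lower in nuclei; these 26 had a median log2 fold change of -0.55 in the mutant cortex, with 24 below 0. Of the 11 genes higher in nuclei than in the n series, none fell in the mutant cortex, 1 rose (Mcm7), and the median was 0.09. The 7 genes not called between nuclei and cortex held no called gene in the mutant and had a median of -0.22. In Dnmt3a1-/- hippocampus 22 of the 24 tested genes lower in nuclei were below 0 (median -0.34), and 5 of the 10 tested genes higher in nuclei were (median 0.05). The same split by level in nuclei was not made for all genes, in cortex or in hippocampus. The shares of all genes above describe the nuclei comparison alone. Whether the pattern is particular to the cell division genes was thus not tested.

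**Figure D5:**
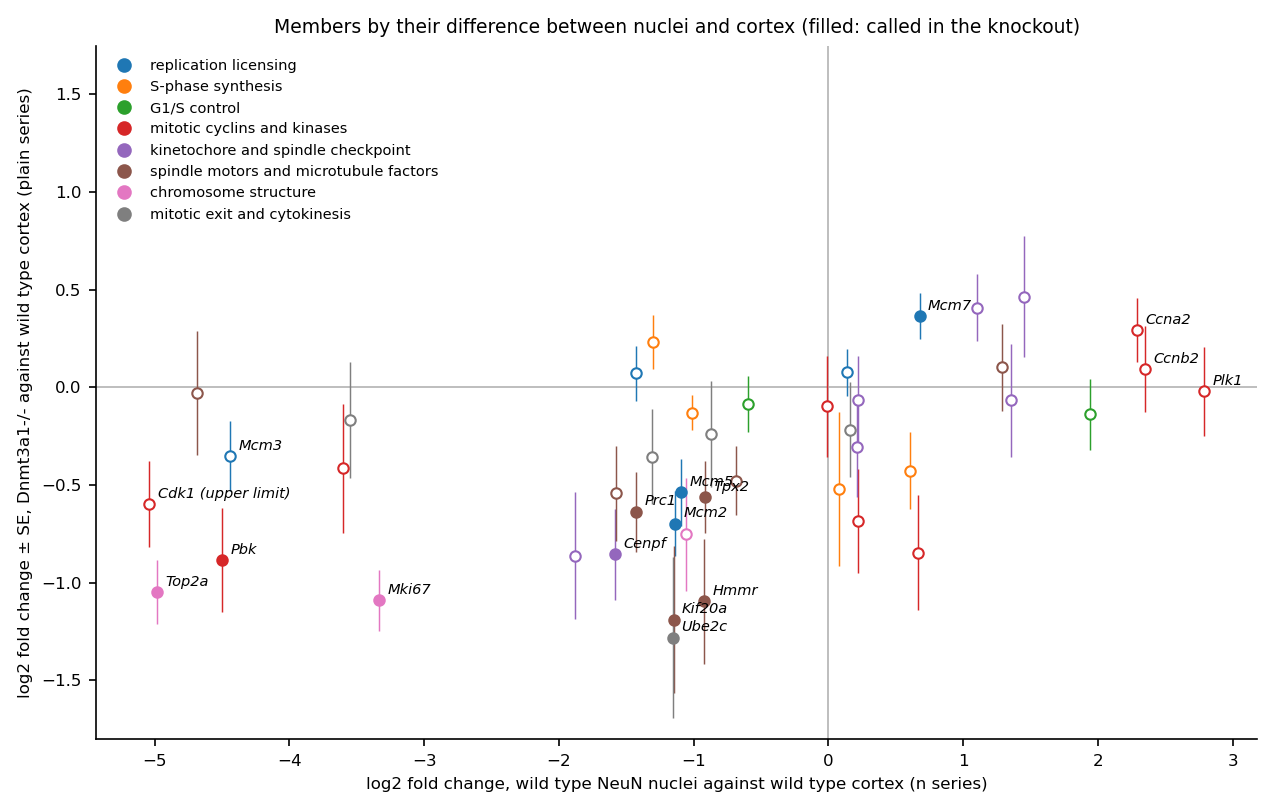
Each point is 1 cell division gene; the horizontal axis is its log2 fold change in wild type NeuN nuclei against the n series of wild type cortex, the vertical axis its log2 fold change ± SE in Dnmt3a1-/- against plain wild type cortex, colours give roles and filled points were called in the mutant. Cdk1 is drawn at the upper limit that its 0 counts in nuclei allow. The 11 filled points below 0 all lie left of 0, and the filled point above 0, Mcm7, lies right of 0.

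In the nuclei labelled Dnmt3a1-/-, 38 genes could be tested and edgeR called 0 (0.246% of all genes) and DESeq2 0. At an unadjusted p under 0.05, 2 passed (8.98% of all genes), Ccnb1 lower and Ncapg higher. Mki67 was at 0.487 and 0.554 CPM in these nuclei against 0.455 and 0.565 CPM in wild type nuclei, and Top2a at 0.358 and 0.119 CPM against 0.313 and 0.113 CPM. Mcm7 was at 31.3 and 24.2 CPM against 23.9 and 21.5 CPM, above in both but not called (0.29 ± 0.16). Its Dnmt3a1-/- libraries were also all above wild type in hippocampus (16.2, 17.1 and 17.2 against 14.4, 14.3 and 14.5 CPM), where it was not called either (0.21 ± 0.11).

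Between wild type hippocampus and the plain wild type cortex, 5 of the 44 genes were lower in hippocampus and 2 higher (23.2% and 22.1% of all genes). Mcm6 was at 18.3, 17.2 and 14.9 CPM in hippocampus and 9.65, 7.16 and 6.47 CPM in cortex (1.03 ± 0.14, edgeR adjusted p = 0.000144), with every hippocampus library above every cortex one. Mcm7 was higher too (0.31). Lower in hippocampus were the G1/S genes E2f1 (-0.83) and Ccne2 (-1.004) and the genes Pcna (-0.32), Ccnb1 (-1.18) and Melk (-1.22). In the wild type hippocampus libraries Ccnb1 rested on only 10, 8 and 5 reads, and Melk on 9, 5 and 7. Mki67 (0.21 ± 0.18) and Top2a (-0.03 ± 0.17) were not called between the tissues. This comparison uses the same wild type cortex libraries as those of Dnmt3a1-/- cortex and of nuclei. Tissue, library series and annotation (55487 gene identifiers for hippocampus, 37310 for cortex) differ together in it and cannot be told apart.

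Further genes of the cell cycle, from lists that hold none of the 44, were called at shares under those of all genes in Dnmt3a1-/- cortex: 6 of 115 were lower (5.22%, against 8.91%) and 9 were higher (against 8.95%). Of 54 other mitosis genes tested, 4 were lower and 3 higher. The lower ones were Aspm, a spindle pole protein (-1.01 ± 0.22), Nuf2, of the kinetochore (-0.58 ± 0.17), Ckap2l (-0.82 ± 0.23) and Kif18a, a kinesin that aligns chromosomes (-0.82 ± 0.25). The higher ones were Cdc25b, the phosphatase that activates CDK1 (0.70 ± 0.10), and the spindle genes Spag5 (0.66 ± 0.10) and Tacc3 (0.49 ± 0.11). Of 32 tested genes of origin firing and the replication fork, none was lower and 3 were higher: Lig1, DNA ligase 1 (0.43 ± 0.11), Orc6 (0.31 ± 0.09) and Rfc5 (0.35 ± 0.11).

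Among 8 G1 cyclins and their kinases, the D-type cyclin genes Ccnd1 and Ccnd2 were lower and Cdk2 was higher. Ccnd1 was at 66.1 ± 5.93 CPM (SD, n = 3) in wild type and 48.1 ± 4.21 CPM in the mutant (-0.47 ± 0.08, edgeR adjusted p = 0.00175), and Ccnd2 differed by -0.23 ± 0.07. Of 5 tested inhibitors of cyclin-dependent kinases, Cdkn1c was higher (0.53 ± 0.12) and all 5 were above 0. Of 16 genes of the RB and E2F families, 1 was higher (Rbl2, 0.23 ± 0.06).

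Markers of cell types that could hold the dividing cells moved in different directions beside the 44 genes; the shares of all genes to set beside their counts are 8.91% lower and 8.95% higher. The oligodendrocyte precursor list did not fall in Dnmt3a1-/- cortex: none of 11 tested genes was lower, 4 were higher (Matn4, Vcan, Sox10 and Bcas1, by 0.21 to 0.51), and the summed level of the list was 1066 to 1131 CPM against 964.8 to 984.8 CPM. Its defining genes Pdgfra and Cspg4 were not called. The sums of the myelin list were 18520 to 21960 CPM against 16010 to 18860 CPM. The precursor list was not checked against later cells of that lineage, so it does not give the number of dividing precursors. Of 12 tested markers of neural progenitors and neuroblasts, Nes (-0.61 ± 0.09) and Cd24a (-0.42 ± 0.09) were lower, and the summed level was 137.1 to 139.6 CPM against 137.2 to 161.9 CPM. In hippocampus the same list had 13 of 14 genes above 0 and only Nes called, at -0.66 ± 0.15. A single Dnmt3a1-/- cortex library had 2 genes of this list at 0.

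Of 12 endothelial markers 5 were lower in Dnmt3a1-/- cortex, with Aplnr at -2.02 ± 0.23 and Itm2a, Slco1c1, Emcn and Tek between -0.67 and -0.34; Cldn5 and Pecam1 were not called, and the summed levels were 909.2 to 1027 CPM against 1072 to 1286 CPM. Of 10 mural and meningeal markers 3 were lower (Lum, Rgs5 and Col1a1), at 552.1 to 626.3 CPM in sum against 646.2 to 938.2 CPM. Of 9 blood cell markers 1 was lower (Slc4a1), all 9 were below 0 with a median of -0.85, and the sums ran from 350 to 532.6 CPM against 536.2 to 843.4 CPM. In hippocampus all 8 tested were below 0 (median -0.86), with sums of 277.6 to 383.2 CPM against 361.4 to 681.3 CPM. All 8 choroid plexus markers were above 0, with none called, and their sums were 821.8 to 2007 CPM against 120.5 to 746.7 CPM. Of 10 microglial markers 2 were lower (Fcrls at -0.75 ± 0.11 and Itgam at -0.27 ± 0.08), with sums of 1366 to 1472 CPM against 1409 to 1633 CPM. Of 8 astrocyte markers 1 was lower and 3 higher, of 6 myelin markers 2 were higher, and of 9 neuronal markers 3 were lower. No marker of the endothelial, mural, blood or choroid plexus lists was at 0 in any cortex library. In the r series the endothelial sums were 905.1 and 915.5 CPM and the mural and meningeal sums 463.6 and 531.7 CPM. In the n series they ran from 920.0 to 1175 CPM and from 554.8 to 746.1 CPM. The blood sums of the r series lay below those of Dnmt3a1-/- cortex. For these 3 lists the mutant sums thus lay within the range of the 8 wild type cortex libraries. The part of these cell types in the lower levels of the cell division genes was not tested.

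Aplnr (-1.50), Itm2a (-0.47), Rgs5 (-0.48), Fcrls (-0.86) and Nes (-0.66) were also the called markers that were lower in Dnmt3a1-/- hippocampus, together with Aqp4 (-0.68), an astrocyte water channel that was lower in cortex as well (-0.51). Reads outside genes made up 10.34 to 10.8% of reads assigned or outside genes in Dnmt3a1-/- cortex and 9.38 to 10.16% in the plain wild type series. In hippocampus the same share was 9.69 to 10.3% in the mutant and 8.41 to 8.74% in wild type. The part of this difference in the counts of the 44 genes was not tested.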

How the data were processed

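The deposited values are counts of reads per gene in 26 RNA libraries; per the labels they came from a stranded TruSeq mRNA kit, and per the submitters' processing notes the authors used STAR 2.5.4a, HTSeq 0.11.0 and mm9. The annotation release and strand setting are not given in the sources used here. Lines naming no gene (21.14 to 36.97% of reads) were left out. Gene totals were 8677149 to 39049155 per library, and no libraries of a group agreed within sampling noise.

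Groups were compared with edgeR 4.0.16 (R 4.3.3; filterByExpr, TMM, robust quasi-likelihood F test), with Benjamini-Hochberg adjustment over all genes tested and calls at an adjusted p under 0.05. SE is the log2 fold change divided by the root of F. CPM is the count over the library's gene total. Tests between tissues used the 32601 shared identifiers. The scripts were tested on simulated data. The 44 genes, the further lists and the naming rule were chosen with earlier results of these data known. By that rule all 44 were accounted for, up to 3 called genes per role were given in every library, and up to 4 called genes of each further list and 3 of each marker list, with its first 2 genes, were named by smallest p; names beyond these (such as Tpx2, Tek and the uncalled genes given by library) were chosen after their values were seen. Alternatives were DESeq2 1.42.0, RLE factors, no filter, the replicate block, a sex term, all wild type cortex libraries and leaving out each library; other series as controls for nuclei were added after the data were seen. Same-numbered libraries deviated together in Dnmt3a1-/- cortex (r across genes 0.231, 0.38 and 0.18) and Dnmt3a1_delta_N cortex (0.369, 0.247 and 0.434), so the numbers were taken as pairs there; the labels do not say what a number marks. Sequences are from RefSeq, GRCm38.p6, a build other than that of the counts. 1 gene of the blood cell list is not reported here and is left out of its counts.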

Additional observations from a re-analysis of the deposited data

Results flagged for a closer look

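In 4 cases every mutant library lay on one side of wild type in a whole tissue and on the other side in the nuclei labelled Dnmt3a1-/-, in which Dnmt3a itself was not reduced. None of these differences between tissue and nuclei was tested. Prc1 was -0.64 in Dnmt3a1-/- cortex and -0.72 in hippocampus, and 0.17 in nuclei. Ncapg was -0.75 in Dnmt3a1-/- cortex and 1.23 in nuclei, where it rested on 12 reads in each wild type library and 24 and 26 in the others. Mcm6 was -0.35 in Dnmt3a1-/- hippocampus and 0.33 in nuclei. With 2 libraries a group in nuclei, 3107 of 15860 genes had both labelled libraries below wild type and 3000 had both above.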

How the results depend on the processing

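No called gene of the 44 changed direction under an alternative run, except Ccnb1 in nuclei with the r series as control (-0.11 in place of 0.80, not called). DESeq2 called 4 of the 44 genes in Dnmt3a1-/- cortex in place of 12, 1 in place of 0 in hippocampus, 4 in place of 7 between wild type hippocampus and cortex, and 3 in place of 5 between the n and r series. Without the filter on low counts 3 were called in hippocampus and 2 between the n and plain series, where RLE factors also gave 2, in place of 1. Set against the 8 wild type libraries of cortex together, Dnmt3a2-/- cortex had a median of -0.065. With the replicate block 15 genes were called in Dnmt3a1-/- cortex (all 12, with Ccnb1, Melk and Kif11; 31% of all genes), 2 in the test of Dnmt3a1_delta_N against Dnmt3a1-/-, and the block changed no other call of these comparisons. A sex term left 10 of the 12. For it, sex was inferred from Xist counts, a library above 5 CPM being taken as female. In Dnmt3a2-/- cortex and in nuclei it called the same numbers of genes as the replicate block (55 and 740 of all genes), so the terms cannot be told apart there. Leaving out 1 library each gave 3 to 9 genes in Dnmt3a1-/- cortex, 0 to 1 in hippocampus, 0 to 2 in the test of Dnmt3a1_delta_N against Dnmt3a1-/-, 3 to 7 between hippocampus and cortex, 3 to 9 between r and plain, 1 to 3 between n and plain and 0 to 5 between n and r, and medians of -0.048 to 0.0103 in Dnmt3a2-/- cortex, -0.106 to 0.0079 in Dnmt3a1_delta_N cortex, -0.39 to -0.09 in hippocampus and -0.18 to 0.14 in nuclei. The causes were not tested. Genes under 1 CPM rest on few reads, most of all in hippocampus.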
